A study of Arabidopsis thaliana with 18 samples.

Results

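The 44 genes described here are those whose signal on every ultraviolet array stood clear of that on every continuous-light array, out of 13513 Arabidopsis thaliana probe sets annotated to 1 gene. They were chosen by their measured signals. With signals under 16 set to 16, the lowest of 9 signals after ultraviolet light had to exceed 2 times the highest of 9 signals in continuous light. In all 53 genes on such probe sets met this rule, and 9 of them, among them CHIL, UGT84A1 and AT2G04070, are left out by the list of exceptions in the rule. Over the whole array 117 probe sets met the fold, and 63 of these are not listed in the annotation and have no name here, so the 44 genes are the smaller share of what was separated. The rule picked 0.392% of the probe sets with 1 gene, and 15 genes met its mirror image downward. Since ultraviolet against continuous light chose the genes, that difference is given here as a description with no test.

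Each array held RNA from the aerial part of a single plant, 18 days old, grown on medium with 1% sucrose under long days. The genotypes, all in the Col-0 background, were tt4, a mutant with impaired flavonoid synthesis, sng1, a mutant with impaired sinapoyl malate synthesis, and the wild type (WT). Plants of each genotype received either 24 h of ultraviolet light (UV, called UV-B in the series title) on the last day or continuous light (CO) with 8 h of added light. There were 3 plants in each of the 6 groups tt4_UV, sng1_UV, WT_UV, tt4_CO, sng1_CO and WT_CO, and 18 arrays in all. Nothing says whether UV plants had the added light too, so a UV difference cannot be told apart from a difference in the length of the light period. Further, the running codes of the samples put all UV plants before all CO plants. Within each light they put WT before tt4 and tt4 before sng1. Light and genotype thus cannot be told apart from whatever order these codes follow. The labels name no allele of tt4 or sng1, and neither mutated gene has a named probe set, so the genotypes were not checked by name. P-values set a difference against the spread between single plants within groups, pooled over the 6 groups.

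Ultraviolet-B light is sensed in plants by a dedicated photoreceptor that switches on genes for sunscreen pigments, and at higher doses it damages DNA, proteins and membranes and sets off stress responses shared with defence against microbes. Such responses often involve calcium sensors, receptor kinases at the cell surface, immune receptor proteins with TIR or RPW8 domains, and small secreted peptides that alert neighbouring cells. Flavonoids and sinapate esters, whose synthesis the tt4 and sng1 mutations impair, absorb ultraviolet light in the epidermis. The genes below are known mostly by their locus codes, and a role is given where their protein family is known.

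Array medians lay between 163 and 185 signal units and no arrays held identical values. Of 10 leaf marker genes 2 were measured, SBPASE and PRK of the carbon-fixing cycle. SBPASE gave 2576 to 4578 under UV and 6528 to 9761 in CO, and PRK gave 3882 to 5501 under UV and 7824 to 11315 in CO, so both were present in all plants and lower in every UV plant. Of 6 root markers 2 were measured: EXPA7, of root hairs, gave 16 to 48.1 under UV and 16 to 43.5 in CO. PYK10, an abundant root glucosidase, gave 836 to 4054 under UV and 3430 to 6128 in CO, and its part in the results was not tested. None of 4 flower markers was measured. In RNA from whole shoots, fewer cells of a type and less RNA per cell cannot be told apart.

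The separation of a gene is expressed here as the lowest UV signal divided by the highest CO signal. It lay between 2.02 and 5.62 over the 44 genes, with a median of 2.36. It passed 3 in 9 genes and 4 in 5 genes, and 28 genes had a value under 2.5. The genes just inside the threshold were AT5G43450 (2199 lowest under UV, 1089 highest in CO), AT4G37290 (107 under UV, 52.7 in CO) and AT1G26420 (252 under UV, 125 in CO). Just outside it lay AT1G24140 (209 under UV, 105 in CO), AT2G41730 (3536 under UV, 1771 in CO) and CML41 (943 under UV, 474 in CO), with ratios of 1.9996, 1.9958 and 1.9891. The boundary therefore cuts through a run of close values.

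**Figure D1:**
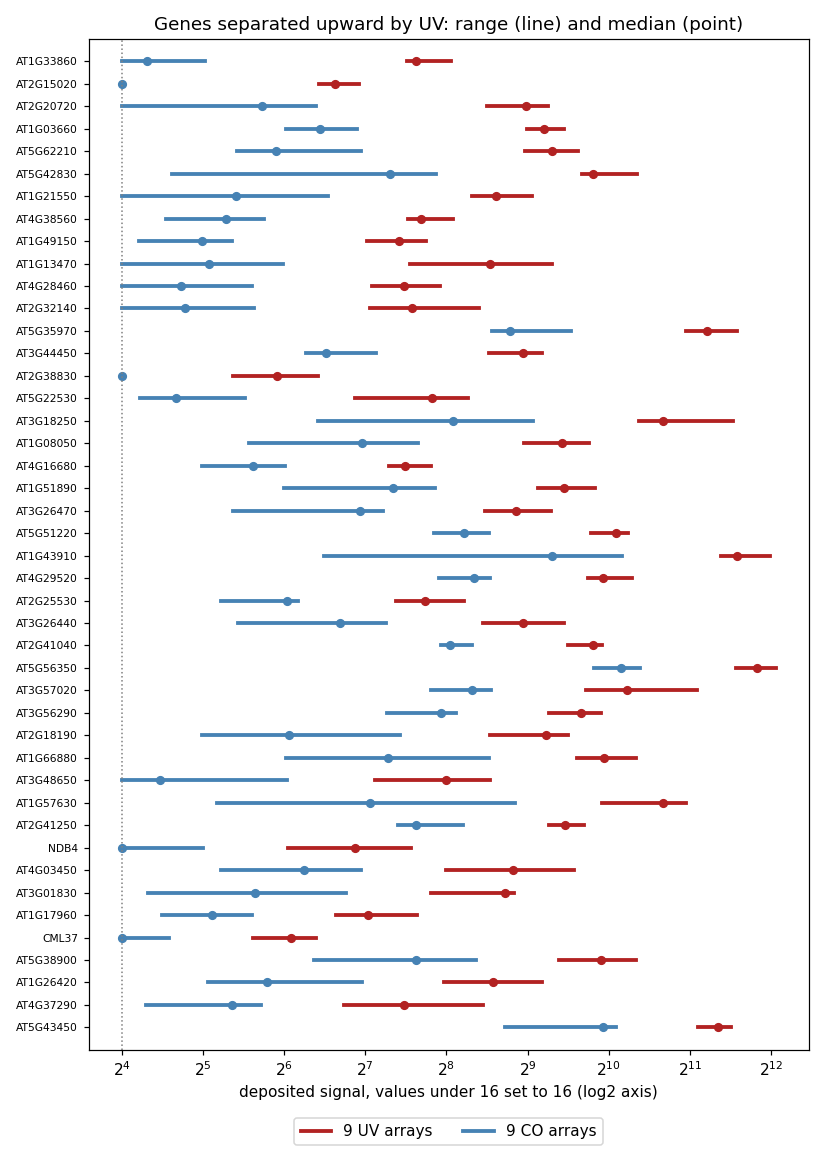
Signal range (line) and median (point) of each of the 44 genes over the 9 UV arrays (red) and the 9 CO arrays (blue) on a log2 axis, with the floor of 16 dotted. Genes run from the widest separation at the top (AT1G33860, 5.62) to the narrowest (AT5G43450, 2.02), and the CO lines are longer than the UV lines in 36 of the genes.

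AT1G33860, a gene with no role given here, was the most widely separated. It gave 232, 198 and 194 in tt4_UV plants, 183, 266 and 190 in sng1_UV plants and 221, 247 and 186 in WT_UV plants. In CO it gave 16, 19.9 and 18.8 in tt4, 20.8, 32.6 and 23.4 in sng1, and 16, 16 and 21.8 in WT. The CO signals thus lay at or just above the floor, while the UV signals of all genotypes fell within one narrow band.

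AT2G15020, also without a role given here, was at or below the floor of 16 in all 9 CO plants. Under UV it gave 96.2, 109 and 86.4 in tt4, 88.9, 121 and 103 in sng1, and 99.2, 97.6 and 108 in WT. Its UV group mean was at least 6.2-fold above the floor in tt4, at least 6.71-fold in sng1 and at least 6.55-fold in WT. These folds and the other differences between group means come from quantile-normalized signals with the same floor. AT2G38830, a UEV-domain protein of the ubiquitin pathway, was the other gene at the floor in every CO plant. It reached 41.3 to 85.7 under UV, at least 3.48-fold above the floor in tt4, 4.14-fold in sng1 and 3.84-fold in WT.

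AT2G20720 gave 362 to 611 under UV (median 504) and 16 to 84 in CO (median 53.1). AT5G62210, a PLAT-domain protein, gave 503 to 791 under UV (median 630) and 42.9 to 124 in CO (median 59.6). Both were low yet measurable in most CO plants. Separations over 3 were also found for AT4G38560 (185 to 271 under UV, 23.3 to 53.9 in CO) and AT1G49150 (130 to 215 under UV, 18.6 to 41.1 in CO), for which no role is given.

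Calcium-binding proteins, 3 in number, were among the genes. EF-hand proteins bind calcium ions and pass changes in their level on to other proteins. AT1G21550, an EF-hand protein, gave 386, 435 and 534 in tt4_UV, 417, 468 and 322 in sng1_UV and 320, 392 and 332 in WT_UV. In CO it gave 43.1, 16 and 28.6 in tt4, 42.5, 46.7 and 93.1 in sng1, and 38, 39.9 and 77.4 in WT. Its UV plants were all at 320 or above while its CO plants spread from the floor upward. AT3G01830, a second EF-hand protein, gave 225 to 458 under UV (median 423) and 20 to 109 in CO (median 50). CML37, a calmodulin-like sensor, was much nearer to background, with 49.2 to 84 under UV and 16 to 24.1 in CO, where 7 of 9 plants were at the floor. All tt4_CO and sng1_CO plants were at the floor for CML37, so its UV difference was at least 4.77-fold in tt4 and at least 3.96-fold in sng1. Of the 7 measured genes with a CML symbol, CML37 and CML41 had all UV signals above all CO signals, and none had all below. The shares were 6.84% above and 7.04% below of all probe sets with 1 gene. The count was made by symbol, so AT1G21550 and AT3G01830, named by locus, are not in it. CML37 is among those above because the rule chose it. CML38 gave 136 to 525 under UV and 43.1 to 320 in CO, which overlap, and CML42 gave 158 to 270 under UV and 239 to 352 in CO, which also overlap.

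Another 10 genes belong to protein families known from defence and signalling. This grouping and the others by family were made after the genes were known. AT1G57630, a TIR-domain protein of the kind found in immune receptors, gave 1624, 1975 and 1029 in tt4_UV, 1844, 1725 and 1589 in sng1_UV and 1346, 1881 and 964 in WT_UV. The CO signals were 145, 36.3 and 51.8 in tt4, 103, 283 and 220 in sng1, and 126, 133 and 459 in WT. It varied 12.6-fold among the CO plants and 2.05-fold among the UV plants. AT2G32140, another TIR-domain protein, gave 133 to 338 under UV (median 191) and 16 to 49.6 in CO (median 27.6). AT3G26470, with the RPW8 domain of powdery mildew resistance proteins, gave 357 to 628 under UV (median 465) and 41.4 to 149 in CO (median 122).

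The receptor-like kinases, which sit in the plasma membrane and sense signals outside the cell, were represented by AT1G51890 and AT1G66880. AT1G51890, with leucine-rich repeats, gave 562 to 907 under UV (median 701) and 63.8 to 233 in CO (median 163). AT1G66880 gave 781 to 1292 under UV (median 986) and 65.3 to 367 in CO (median 156). Both had their lowest CO signal in the same plant, tt4_CO 2.

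The precursors of secreted signalling peptides were AT4G28460 and AT4G37290; peptides of this kind amplify immune responses in Arabidopsis. AT4G28460 gave 136 to 243 under UV (median 178) and 16 to 48.7 in CO (median 26.6). AT4G37290 gave 107 to 351 under UV (median 178) and 19.8 to 52.7 in CO (median 41.2), and its UV range of 3.3-fold was among the widest of the 44 genes. The ankyrin-repeat proteins AT1G03660 and AT4G03450 differed in how tightly their plants grouped. AT1G03660 gave 511 to 701 under UV and 65.1 to 119 in CO, whereas AT4G03450 gave 255 to 763 under UV and 37.3 to 124 in CO. AT1G26420, an oxidase of the berberine bridge enzyme family, gave 252 to 581 under UV and 33.6 to 125 in CO.

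**Figure D2:**
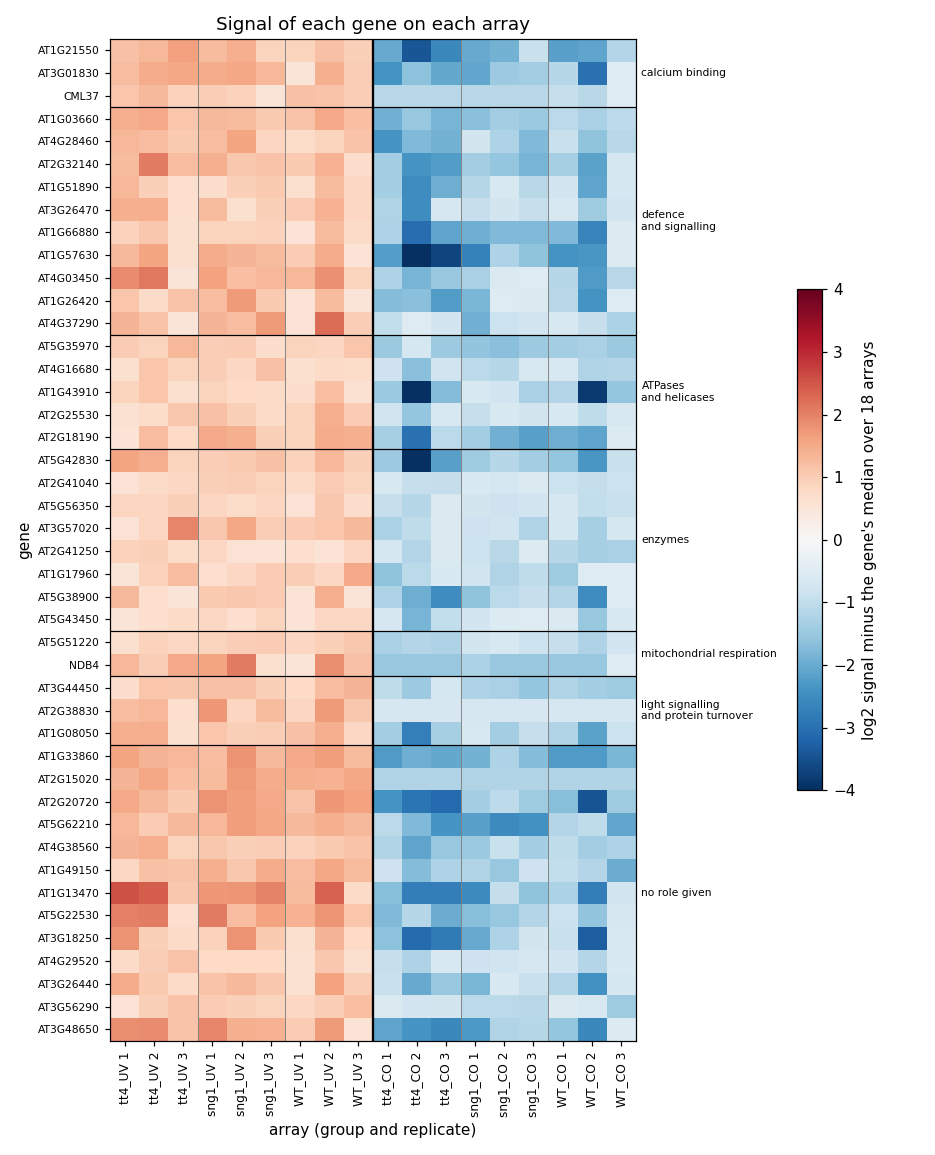
Log2 signal of each gene (rows, grouped by protein family) on each of the 18 arrays (columns, UV left of the thick line and CO right of it), as the difference from the gene's median over all arrays. Every UV cell is above every CO cell of its row, and the darkest CO cells lie in the columns WT_CO 2 and tt4_CO 2.

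The ATPases and helicases numbered 5. AT1G43910, an AAA-type ATPase, gave 3234, 3772 and 2750 in tt4_UV, 3270, 3060 and 2971 in sng1_UV and 2837, 4064 and 2672 in WT_UV. In CO it gave 631, 90.4 and 523 in tt4, 1145, 1032 and 714 in sng1, and 771, 123 and 593 in WT. A single tt4 plant and a single WT plant were thus far below the rest in CO, while no UV plant stood apart. AT2G18190, a related AAA-type ATPase, gave 371 to 723 under UV (median 601) and 31.8 to 173 in CO (median 66.6). AT5G35970, a helicase-like protein, was bright and narrow, with 1974 to 3049 under UV (median 2374) and 379 to 743 in CO (median 439). AT2G25530, an AFG1-like ATPase, and AT4G16680, an RNA helicase-like protein, had medians of 213 and 180 under UV, with CO medians of 65.9 and 49.2.

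Enzymes made up 8 of the genes. AT5G56350, a pyruvate kinase of glycolysis, gave 3674, 3641 and 3870 in tt4_UV, 3656, 3334 and 3627 in sng1_UV and 3036, 4261 and 3255 in WT_UV. Its CO plants gave 1063, 905 and 1334 in tt4, 1216, 1135 and 1181 in sng1, and 1259, 1028 and 1084 in WT. It was well above the floor in all plants. AT2G41040, a methyltransferase, had the narrowest CO range of the genes away from the floor, with 723 to 970 under UV and 245 to 318 in CO. AT5G42830, an acyltransferase of the BAHD family that modifies plant secondary compounds, was wide in CO instead: it gave 812 to 1298 under UV and 24.6 to 234 in CO. AT5G43450, a dioxygenase that uses 2-oxoglutarate, gave 2199 to 2900 under UV and 424 to 1089 in CO. These enzymes thus ranged from steady to widely varying in CO.

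The other enzymes were separated by 2.03 to 2.24. AT3G57020, related to strictosidine synthase, gave 842 to 2171 under UV (median 1198) and 224 to 376 in CO (median 320). AT2G41250, a hydrolase of the haloacid dehalogenase family, gave 615 to 828 under UV (median 702) and 169 to 294 in CO (median 197). AT1G17960, a threonyl-tRNA synthetase that loads threonine for protein synthesis, was dimmer, with 99.9 to 200 under UV (median 131) and 22.7 to 48.8 in CO (median 34.5). AT5G38900, with a thioredoxin fold, gave 670 to 1293 under UV (median 961) and 82.5 to 330 in CO (median 198).

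Mitochondrial respiration was represented by NDB4, an alternative NAD(P)H dehydrogenase that bypasses complex I, and by AT5G51220, of a chaperone family for cytochrome c reductase. NDB4 gave 117, 90.8 and 132 in tt4_UV, 138, 190 and 71.5 in sng1_UV and 66.3, 169 and 104 in WT_UV. In CO it was at the floor in 7 of 9 plants, with 19.2 in sng1_CO 1 and 32.1 in WT_CO 3. Its UV difference in tt4 was at least 7.17-fold. Of 5 measured genes of the alternative dehydrogenases, NDB4 and NDB2 had all UV signals above all CO signals, against 6.84% of all probe sets with 1 gene, and NDB4 is in this count because the rule chose it. NDB2 gave 1043 to 1984 under UV and 285 to 583 in CO. NDB1, NDB3 and NDC1 overlapped between the lights. AT5G51220 was at a steady level, with 880 to 1206 under UV and 230 to 369 in CO.

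AT3G44450, an inhibitor of the blue-light receptors called cryptochromes, gave 368, 492 and 477 in tt4_UV, 515, 508 and 443 in sng1_UV and 397, 538 and 577 in WT_UV. In CO it gave 113, 82.8 and 140 in tt4, 95.9, 91.4 and 77.3 in sng1, and 97.8, 88 and 84.7 in WT. The sng1 and WT plants in CO lay closer together than the tt4 plants. Whether the length of the light period differed between the treatments is not known, as given above. AT1G08050, a RING-type zinc finger protein, gave 495 to 866 under UV and 47.7 to 201 in CO.

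The other genes have no role given here. AT1G13470 had the widest UV range of the 44 genes, with 631, 583 and 229 in tt4_UV, 361, 373 and 433 in sng1_UV and 262, 558 and 187 in WT_UV. The CO values were 33.7, 16 and 16 in tt4, 18.5, 55.8 and 35.4 in sng1, and 45.2, 16 and 63.4 in WT. The plants tt4_UV 3 and WT_UV 3 were thus the lowest of their groups, yet above every CO plant. AT3G18250 gave 1327 to 2950 under UV (median 1625) and 85.5 to 538 in CO (median 272). AT4G29520 gave 860 to 1247 under UV (median 977) and 241 to 372 in CO (median 325). Both were well above the floor in CO, the first over a wide range and the other over a narrow one. AT3G56290 gave 613 to 957 under UV (median 808) and 154 to 279 in CO (median 244). AT3G26440 gave 350 to 700 under UV (median 492) and 43.3 to 153 in CO (median 103). AT5G22530 gave 117 to 307 under UV (median 226) and 18.7 to 46 in CO (median 25.4), and was thus near the floor in CO.

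Genes of known UV and stress pathways were compared through 16 lists with 252 genes, of which 60 were measured with a probe set of their own. None of the 44 genes was on a list, because the exceptions in the rule took out the 6 list genes that met the fold: CHIL, AT1G06000, UGT84A1, AT2G21640, AT2G04050 and AT2G04070. All UV signals lay above all CO signals in 23 of the 60 genes and below in 3, against 6.84% and 7.04% of all probe sets with 1 gene. In the list of protein folding in the endoplasmic reticulum 5 of 6 measured genes were above, among them the stress factor BZIP60 (1551 to 2241 under UV, 609 to 1060 in CO) and CRT2 (2635 to 3558 under UV, 1351 to 1986 in CO). All 4 measured genes of detoxification and efflux were above, including UGT73B5 (413 to 732 under UV, 162 to 302 in CO). In contrast, 1 of 10 autophagy genes was above, and of 8 glutathione transferases none was above and GSTU18 was below (177 to 288 under UV, 777 to 1109 in CO). The lists were drawn up with earlier results of these data known, and no test was made of them.

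In the 44 genes the plants differed more from each other in CO than under UV. The rule used the lowest UV and the highest CO signal of each gene. It sets a ceiling on the highest CO signal but none on how far CO signals spread below it. Likewise it sets a lower limit on the lowest UV signal but none on how far UV signals spread above it. The median over the 44 genes of the highest over the lowest signal was 1.7 under UV and 2.62 in CO. Over all probe sets with 1 gene the medians were 1.55 under UV and 1.56 in CO. A ratio above 3 occurred in 2 of the 44 genes under UV and in 20 of the 44 in CO, where 7.47% of probe sets with 1 gene had one. More spread in CO than under UV was seen in 36 of the 44 genes, and in 48.5% of probe sets with 1 gene. In the 33 genes with no CO array at the floor, the medians were 1.65 under UV and 2.57 in CO. The part of low signal in this was not tested. No test was made of these spreads.

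The low CO signals came mostly from a pair of plants. Of the 20 genes with a CO ratio above 3, 17 had their lowest signal in one of them, 10 in tt4_CO 2 and 7 in WT_CO 2. WT_CO 2 was below both other WT_CO plants in 31 of the 44 genes (70.5%), and in 23.8% of all probe sets with 1 gene. The plant tt4_CO 2 was below both other tt4_CO plants in 23 of the genes (52.3%), and in 21.6% of all probe sets with 1 gene. Both held together in 18 genes (40.9%), against 9.96% of all. At the other end, WT_CO 3 was the highest CO plant in 16 genes. The 5 genes with the widest CO range were AT1G43910 (12.7-fold), AT1G57630 (12.6-fold), AT5G42830 (9.51-fold), AT3G18250 (6.29-fold) and AT1G21550 (at least 5.82-fold). The lowest CO signal of AT1G21550, in tt4_CO 2, was at the floor. By contrast AT2G41040, AT5G56350, AT4G29520, AT5G51220 and AT3G57020 stayed within 1.68-fold in CO. In each of these, WT_CO 2 was still the lowest WT_CO plant. The plant tt4_CO 2 was the lowest of its group in AT5G56350 and AT4G29520 but not in the others. The low signals of these plants thus differed in size between genes.

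**Figure D3:**
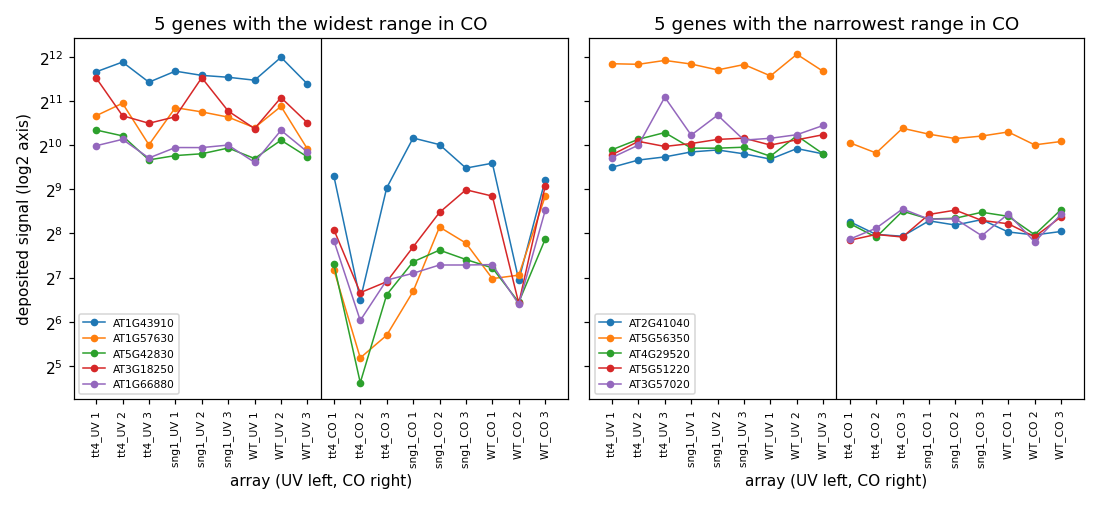
Signal on each array (log2 axis, UV left and CO right of the line) of the 5 genes with the widest and the 5 genes with the narrowest CO range among the 33 genes with no CO array at the floor. The wide genes reach their lowest values in WT_CO 2 and tt4_CO 2, where AT1G43910 gave 123 and 90.4, while the narrow genes stay within 1.68-fold in CO.

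Among the groups by protein family, a CO range above 3 was found in 8 of 10 genes of defence and signalling and in 2 of 3 calcium-binding proteins. It was found in 2 of 5 ATPases and helicases, in 1 of 3 genes of light signalling and protein turnover, in 2 of 8 enzymes, in neither gene of mitochondrial respiration and in 5 of the 13 genes with no role given. The groups were formed after the values were known, and no test was made of them. Leaving out WT_CO 2 and tt4_CO 2, an alternative chosen after seeing the data, left 11 of the 44 genes with a CO range above 3 and a median of 2.08, against 4.8% and a median of 1.45 over all probe sets with 1 gene. Leaving out WT_CO 3 as well left 7 genes and a median of 1.87. The ratio of the 3′ to the 5′ GAPDH control probe sets, a sign of RNA quality, was 0.978 in WT_CO 2. In tt4_CO 2 it was 1.05, the highest in CO, where the other arrays ran from 0.93 to 1.03. A second GAPDH control pair gave 1.54 in WT_CO 2 and 1.56 in tt4_CO 2, against 1.29 to 1.6 on the other CO arrays. Over both lights the 2 ratios were highest in WT_UV 3, at 1.19 and 1.94. The part of RNA quality in the low signals was not tested.

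As deviations from their group means, the genes moved together between plants of a group. The median over the 44 genes was 0.38 below the group mean on the log2 scale in WT_CO 2, where 37 genes were below, and 0.31 below in tt4_CO 2, where 31 were below. It was 0.32 above in WT_CO 3 and 0.29 above in WT_UV 2, while WT_UV 1 was 0.15 below with 40 genes below its group mean. Of all probe sets, 40.2% were below the group mean in WT_CO 2, 43% in tt4_CO 2 and 45.3% in WT_UV 1. The median deviation over all probe sets after normalization was 0.00 on every array, and the part of the whole array in these values was not tested. Over pairs of the genes the median correlation of the deviations was 0.255 across the 9 UV arrays and 0.359 across the 9 CO arrays (42 genes with any variation). Over pairs of all probe sets with 1 gene it was 0 under UV and 0.0025 in CO. These correlations are a description, since all genes share the same few arrays.

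**Figure D4:**
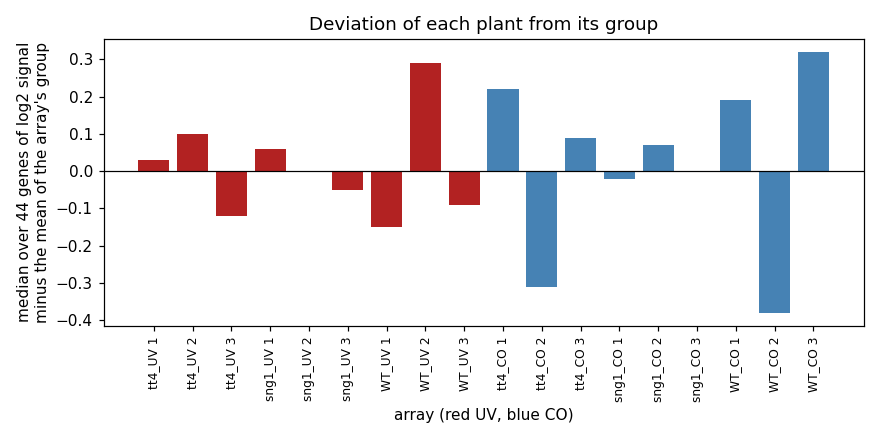
Median over the 44 genes of the log2 signal minus the mean of the array's own group, for each of the 9 UV arrays (red, left) and 9 CO arrays (blue, right). WT_CO 2 (-0.38) and tt4_CO 2 (-0.31) lie lowest and WT_CO 3 (0.32) highest.

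Whether the mutants differed from WT in these genes was tested with limma over all 22746 probe sets, with Benjamini-Hochberg adjusted p under 0.05 as the threshold. The rule did not compare genotypes, but it asked for separation in the plants of every genotype. A gene whose UV signals overlapped its CO signals in a mutant could not be chosen. The choice itself therefore limits the genotype differences that can appear here. None of the 44 genes passed in any of the 6 comparisons. Under UV the tt4 minus WT comparison called 0.0132% of all probe sets and sng1 minus WT called 0.022%. There none of the 44 genes had an unadjusted p under 0.05 by limma, against 4.77% and 4.43% of all probe sets. In CO, tt4 minus WT called 0.022% of all probe sets and sng1 minus WT 0.00879%. There 3 and 7 of the 44 genes had an unadjusted p under 0.05 (6.82% and 15.9%), against 4.59% and 5.1% of all probe sets. The difference of the UV effect from that of WT called 0.0044% of all probe sets for tt4 and 0% for sng1. In each of these, 1 of the 44 genes (2.27%) had an unadjusted p under 0.05 by limma, against 4.54% and 3.02% of all probe sets.

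**Figure D5:**
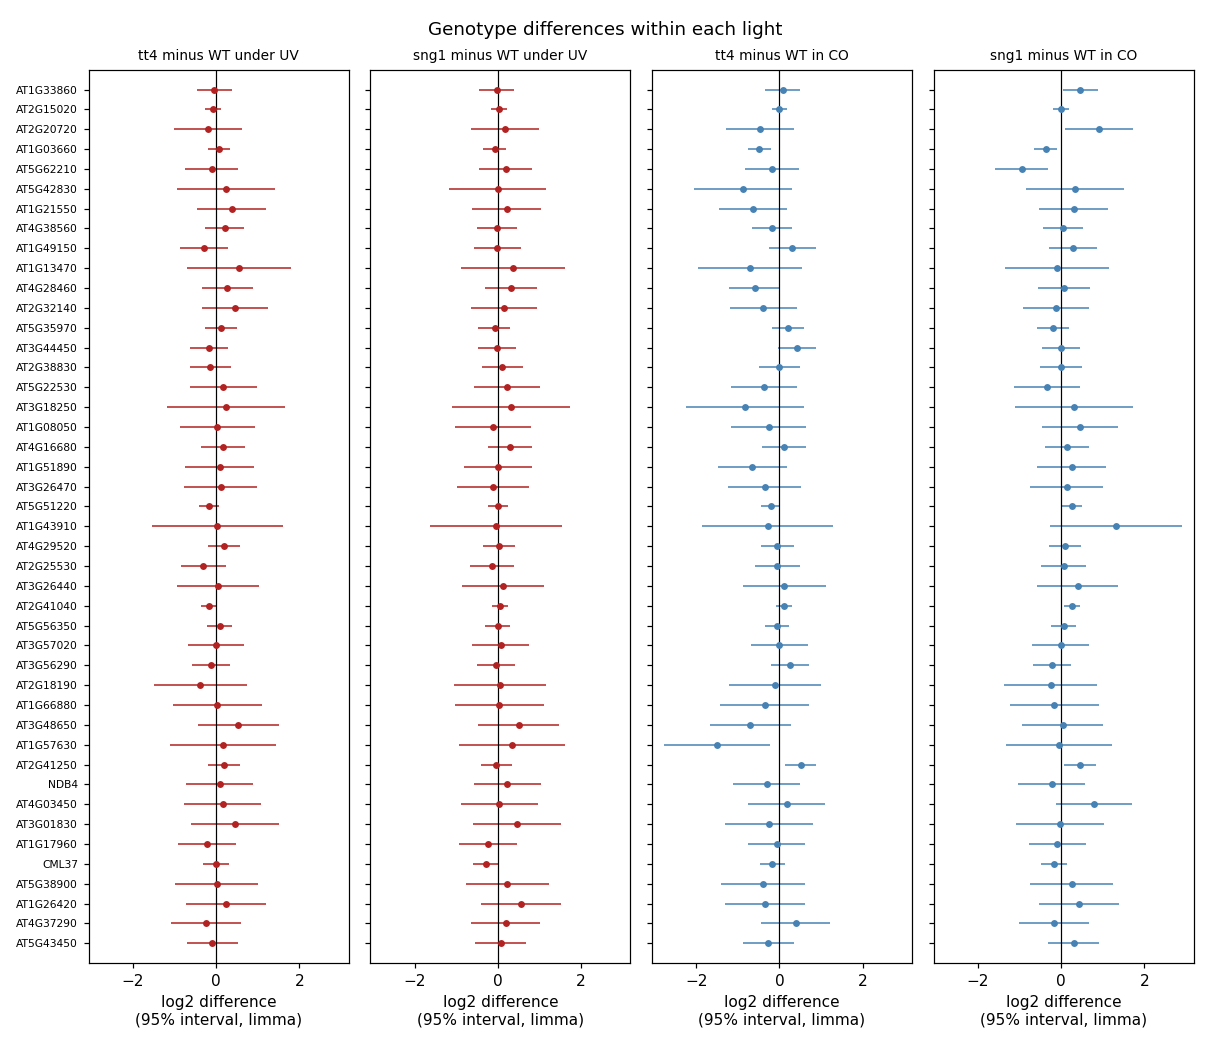
Log2 difference of tt4 and sng1 from WT for each of the 44 genes, under UV (red, left panels) and in CO (blue, right panels), with 95% intervals from limma. No difference passed the adjusted threshold, and the interval is widest for AT1G43910, which also has the widest CO range.

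The ankyrin-repeat gene AT1G03660 had the smallest p of the 44 genes in the tt4 comparison in CO. It gave 65.1, 86.3 and 68.2 in tt4_CO plants and 78.1, 93.1 and 87.4 in sng1_CO plants, against 117, 101 and 119 in WT_CO plants. All mutant plants were below all WT plants in CO. The difference was -0.49 ± 0.13 for tt4 (SE, limma adjusted p = 0.607, range 0.322 to 1 over the alternatives) and -0.36 ± 0.13 for sng1 (limma adjusted p = 0.845, range 0.54 to 1). Under UV its plants overlapped, with 671, 701 and 530 in tt4, 605, 589 and 511 in sng1 and 542, 700 and 573 in WT. Its UV difference exceeded that of WT by 0.56 ± 0.18 in tt4 (limma adjusted p = 1, range 0.459 to 1).

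AT5G62210 had the smallest p in the sng1 comparison in CO. It gave 55, 42.9 and 46.8 in sng1_CO plants, against 112, 124 and 59.6 in WT_CO plants. The groups did not overlap, though WT_CO 3 lay near the sng1 plants. The log2 difference was -0.95 ± 0.29 (limma adjusted p = 0.755, range 0.161 to 1). Its UV difference exceeded that of WT by 1.14 ± 0.42 in sng1 (limma adjusted p = 1, range 0.682 to 1).

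The remaining genes with the smallest p in CO were AT2G41250 (0.51 ± 0.17 for tt4, limma adjusted p = 0.903), AT1G57630 (-1.51 ± 0.59 for tt4, limma adjusted p = 0.986) and AT2G41040 (0.27 ± 0.09 for sng1, limma adjusted p = 0.783). Under UV the smallest p belonged to AT2G41040 for tt4 (-0.17 ± 0.09, limma adjusted p = 0.982) and to CML37 for sng1 (-0.28 ± 0.14, limma adjusted p = 1). None of these passed.

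The precision of the genotype differences varied between genes. The 95% interval of the difference lay within 2-fold either way in 27 of the 44 genes under UV for each mutant, in 21 genes for tt4 in CO and in 22 genes for sng1 in CO. For the interactions it did so in 14 genes for each mutant. The median standard error of a genotype difference was 0.34 on the log2 scale over the 44 genes and 0.17 over all probe sets. For AT1G43910 and AT1G57630 the interval reached past 2-fold in each of these comparisons, so a difference of that size lay within it. The model pooled the spread of a gene over all 6 groups, so an interval under UV also carries the spread in CO. The log2 standard deviations of AT1G43910 were 0.34 in WT_UV, 0.23 in tt4_UV and 0.07 in sng1_UV. In CO they were 1.49 in WT, 1.60 in tt4 and 0.36 in sng1.

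The median genotype difference over the 44 genes was 0.05 for both mutants under UV. In CO it was -0.20 for tt4 and 0.06 for sng1, against 0.00 over all probe sets in each comparison. Single plants moved the tt4 value in CO, which was -0.41 without WT_CO 2 and 0.00 without WT_CO 3. The median UV difference was 2.73 in tt4, 2.38 in sng1 and 2.48 in WT on the log2 scale, with ranges of 1.52 to 4.46 in tt4, 1.39 to 3.95 in sng1 and 1.61 to 3.76 in WT. The median of the tt4 interaction was 0.21, with 0.47 without WT_CO 2 and 0.01 without WT_CO 3. That of the sng1 interaction was -0.01.

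The 44 genes were spread over the genome, with 12, 9, 8, 6 and 9 genes on the 5 chromosomes in order, by the locus order of RefSeq's annotation of TAIR10.1. No genes of the set were next to each other, and the closest were AT3G26440 and AT3G26470, which lie 4 loci apart. The neighbours of the genes were measured by 41 probe sets for 39 genes. Of the 41, 5 had all UV signals above all CO signals and none had all below, against 6.84% and 7.04% of all probe sets with 1 gene. AT3G48640, one of the 9 genes left out above, was the only neighbour that met the rule (672 to 1888 under UV, 16 to 129 in CO), and it lies next to the transcribed pseudogene AT3G48650 (139 to 371 under UV, 16 to 65.7 in CO). Cross-hybridization between these neighbours was not analysed here. AT5G22540, next to AT5G22530, came close with 226 to 328 under UV and 54.4 to 118 in CO. Not a single one of the 44 genes had a second probe set of its own, so each gene rests on a single probe set.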

How the data were processed

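Files deposited for this series held linear intensities, with 22810 probe sets on each array. All arrays had been scaled by the authors to one level, as seen from a mean of 500 in each after trimming 2% at both ends. No source names the software or background method. The genes were chosen on these deposited signals with values under 16 set to 16. Probe sets were named through the supplied platform annotation and locus tables, which left 13513 with 1 gene, 503 with several and 8730 not listed.

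For the genotype tests, 64 control probe sets were removed, signals were quantile normalized in limma 3.58.1 under R 4.3.3, set to at least 16, and taken as log2. A linear model with 6 groups (12 residual degrees of freedom) and eBayes was fitted to all 22746 probe sets. The script was checked on simulated data. The number of arrays limits the precision.

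The genes, the lists and the comparisons were chosen with earlier results of these data known. Named are the 30 genes of widest separation, the 3 smallest p in each genotype comparison, the 3 genes on each side of the threshold, up to 4 genes of a list, and the genes with extreme level or UV spread; genes named for their CO spread or role, family members and neighbours were chosen after their values were seen. Replicate numbers were not found to pair the plants: correlations of the deviations of plants with the same number ran from -0.242 to 0.391 over 21 pairs. Alternatives were another floor, signals as deposited, other sample sets, a replicate block and leaving out each array. Promoter motifs were planned and not analysed here.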

Additional observations from a re-analysis of the deposited data

How the results depend on the processing

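The number of genes was 44 by the rule, 37 with a floor of 64, 46 on quantile-normalized signals (42 of them shared) and 9 with a fold of 3. Leaving out any 1 array gave 44 to 64, with 64 without WT_CO 3 and 56 without WT_UV 1, and all 44 were kept each time, since fewer arrays can only loosen the rule. It was also 44 without WT_CO 2 and tt4_CO 2. None of the 44 genes passed in any of the 6 genotype comparisons under any alternative run, 0 with the replicate block included. The replicate numbers share only a number, and 5 of 18 arrays were most like those of their own number. The few calls over all probe sets were less stable. Leaving out single arrays gave 2 to 13 for tt4 minus WT under UV (3 with all arrays), 3 to 12 for sng1 under UV (5), 0 to 16 for tt4 in CO (5), 2 to 21 for sng1 in CO (2), 1 to 7 for the tt4 interaction (1) and 0 to 7 for the sng1 interaction (0). With the replicate block, tt4 minus WT in CO called 0 and sng1 minus WT under UV called 3. With only the groups compared, the calls were 1 for tt4 and 1 for sng1 under UV, 0 for each in CO and 2 for the sng1 interaction. A floor of 64 or leaving out probe sets at the floor on all arrays gave 3 for tt4 in CO, and signals as deposited gave 3 for sng1 under UV and 8 for sng1 in CO. Without WT_CO 2 and tt4_CO 2 together, added after seeing the data, the calls were 13 for tt4 in CO, 3 for sng1 under UV, 8 for sng1 in CO, 9 for the tt4 interaction and 4 for the sng1 interaction. The cause was not tested. Genes near the floor, such as CML37 and NDB4, have bounds rather than folds in CO.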
